A study of Mus musculus with 48 samples.

Results

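The 45 genes described here encode the sarcomere and the contractile apparatus of striated muscle, and they were taken by name from a list of known contractile genes, out of 47480 gene symbols in the deposited count tables. They comprised 13 genes of the thin filament, 14 of the thick filament, 9 of the Z-disc and its intermediate filament, 4 of titin and the M-band, 3 of the calcium store and energy supply, and 2 assembly factors. RNA-seq libraries were made from C2C12 cells, an established mouse myoblast line that fuses into multinucleated cells when it differentiates. Myoblasts were kept in growth medium with fetal bovine serum, and differentiated cells were cultured in medium with horse serum before the experiment. All cells grew on flexible collagen-coated plates of the Flexcell system, which pulls the membrane in repeated cycles and in all directions of the plane, and the non-stretched cells were not pulled. The 48 libraries formed 12 groups of 4. In each stage there was a stretched and a non-stretched group for each of the times 1 h, 3 h and 6 h. The cells are one line in culture, without nerve or blood supply.

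Myoblast libraries came from the experiments B27 (replicates 7 and 8) and B31 (replicates 9 and 10). Differentiated libraries came from B25 (replicates 7 and 8) and B28 (replicates 9 and 10), except that the stretched group at 1 h held replicates 7 and 8 of B25, replicate 9 of B28 and replicate 4 of a further experiment, B17. p-values therefore measure the spread between cultures of a small number of experiments. The libraries held 48447318 to 68967899 counts in myoblasts and 53916927 to 77080730 in differentiated cells. The B17 library stood apart in several genes. Among them was Ctgf, a stretch-responsive gene, at 982.8 CPM (a library's counts scaled to its size, as CPM in edgeR). The B25 libraries of the same group were at 243.2 and 262.4 CPM. The B28 library of the group is not given here. Without stretching, Ctgf was 0.69 higher on the log2 scale in B28 than in B25 (edgeR, adjusted p = 0.00123). The count of called genes and the named genes at 1 h in differentiated cells were also computed without B17. Other summaries at 1 h include it. Stretch-responsive genes, among them Ctgf, Cyr61, Egr1, Fos and Fosb, served as a check that the cells had been stretched. At 1 h Fos was higher in both stages, by 2.16 on the log2 scale in myoblasts and by 2.76 in differentiated cells (adjusted p = 1.5e-06 and 0.0302, edgeR). Cyr61 and Fosb were also called higher at 1 h in both stages (limits below), but Ctgf and Egr1 only in myoblasts. At 3 h Fosb was called higher in both stages, by 0.71 and 0.77, and Ctgf in differentiated cells. Egr1 was lower in myoblasts at 3 h, at -0.63. The calls of these genes came at 1 h or 3 h, so the 6 h groups had no such check. Markers of adipocytes, endothelial cells and macrophages summed to at most 1.54 CPM in any library. Emcn, of endothelial cells, and Adgre1, of macrophages, were at 0 in every library, and osteoblast markers, nearly all of them Dmp1, reached 6.13 CPM. Of 4 neuronal markers 3 had means below 0.1 CPM, and their sum of 40.2 to 302 CPM was nearly all Tubb3, a tubulin gene.

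A sarcomere is the repeating contractile unit of a myofibril. Thin filaments of actin, tropomyosin and troponin are anchored in the Z-disc, thick filaments of myosin are held together in the M-band, and titin spans from one to the other. When calcium leaves the sarcoplasmic reticulum through the ryanodine receptor it binds troponin C, which moves tropomyosin and lets the myosin heads pull on actin. Many of these proteins exist as embryonic, slow or cardiac, and fast forms encoded by separate genes, and myotubes in culture are known to build sarcomeres with embryonic forms first.

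Several of the genes lie side by side in the genome (mm10). The heavy chain genes Myh3, Myh2, Myh1, Myh4 and Myh8 form a row on chromosome 11 between 67078300 and 67308634. Tnni1 and Tnnt2 are neighbors on chromosome 1 (135779434 to 135852260), and Tnni2 and Tnnt3 lie together on chromosome 7 (142441808 to 142516009). Promoter sequences, taken here as the 250 bases before the annotated start of a RefSeq gene (GRCm38.p6), were at hand for 36 of the 45 genes. The others were Actn3, Lmod3, Myom2, Myoz1, Neb, Tcap, Tnni2, Tnnt3 and Xirp1. These sequences were searched on both strands for the E-box CANNTG, the letters that myogenic factors such as MyoD and myogenin bind, for the MEF2 site and the CArG box, which MEF2 factors and serum response factor bind, and for TATAAA. An E-box was present in 29 of the 36 promoters (80.6%), against 66% of all 27025 promoters and 57.6% of the promoters of 10873 genes tested. The MEF2 site was found in 8 (22.2%, against 3.01% of all promoters), the CArG box in 6 (16.7%, against 1.4%) and TATAAA in 9 (25%, against 13%). The matches overlap no measurement of binding in these cells. A promoter of each of 4 genes on which the results below turn is shown with E-boxes, MEF2 sites and CArG boxes in capitals: Acta1, the skeletal muscle actin gene (chr8:123894776-123895025, minus strand), Tnnt2, the troponin T gene that myoblasts already expressed (chr1:135836084-135836333, plus strand), Myh3, the leading heavy chain gene of the differentiated cells (chr11:67078050-67078299, plus strand), and Xirp2, a gene that changed with stretching in myoblasts (chr2:67445752-67446001, plus strand).
Acta1: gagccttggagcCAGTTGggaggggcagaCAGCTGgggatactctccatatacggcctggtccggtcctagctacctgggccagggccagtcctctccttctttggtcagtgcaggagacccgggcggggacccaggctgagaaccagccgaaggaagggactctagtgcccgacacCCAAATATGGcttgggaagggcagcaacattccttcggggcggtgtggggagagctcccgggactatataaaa
Tnnt2: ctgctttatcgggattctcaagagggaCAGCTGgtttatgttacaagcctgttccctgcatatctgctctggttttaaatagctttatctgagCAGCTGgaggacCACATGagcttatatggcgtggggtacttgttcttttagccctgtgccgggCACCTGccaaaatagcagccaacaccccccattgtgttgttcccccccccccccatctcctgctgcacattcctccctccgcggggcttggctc
Myh3: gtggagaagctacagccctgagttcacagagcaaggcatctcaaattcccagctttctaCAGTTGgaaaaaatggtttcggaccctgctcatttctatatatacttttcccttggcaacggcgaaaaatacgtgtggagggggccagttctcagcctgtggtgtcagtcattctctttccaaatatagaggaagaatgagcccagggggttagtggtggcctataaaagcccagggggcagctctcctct
Xirp2: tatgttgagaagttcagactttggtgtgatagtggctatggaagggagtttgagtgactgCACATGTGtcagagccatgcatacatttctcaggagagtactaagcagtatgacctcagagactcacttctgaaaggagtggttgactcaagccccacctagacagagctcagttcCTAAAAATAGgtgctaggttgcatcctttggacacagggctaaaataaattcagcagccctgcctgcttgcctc
The Acta1 promoter held 2 E-boxes and, 73 bases before the start, a CArG box. The Tnnt2 promoter held 4 E-boxes, the Myh3 promoter 1, and the Xirp2 promoter 2 overlapping ones and a MEF2 site 74 bases before the start.

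The first comparison asked how far the contractile genes differed between the stages in cells that were not stretched. All 45 genes were called higher in differentiated cells (edgeR quasi-likelihood test, adjusted p under 0.05 and a log2 difference of at least 0.58, 12 libraries against 12), where 27.1% of the 16582 genes tested were called higher. In each of the 45 every differentiated library lay above every myoblast library, which was so for 34% of all genes tested. In non-stretched myoblasts at 1 h and 6 h, 15 of the 45 had too few counts to be tested on their own. These 15 entered the stage test through their differentiated libraries, so for them a higher level and a lack of overlap were largely given by the filter. Over all 24 libraries of a stage, stretched ones included, the genes held 0.111% to 0.135% of a library's counts in myoblasts and 3.58% to 4.59% in differentiated cells. A ratio of mean CPM was formed for the 41 genes with more than 3 counts in some non-stretched myoblast library. Of these 32 were over 100-fold and 21 over 1000-fold higher, and the median ratio was 1012-fold. The median fitted log2 difference over the 45 was 9.97, or 9.95 with genes at 0 in myoblasts set to their lower bound, against 0.01 over all genes tested. Stage, medium, plating density and experiment changed together in this design and cannot be told apart, and in bulk RNA more cells of a type cannot be told apart from more RNA per cell. In the same comparison Myog, the myogenic factor that marks differentiation, was 9.14 higher on the log2 scale, and the proliferation genes Mki67 and Ccna2 were lower by 2.40 and 2.47 (edgeR, adjusted p = 2.4e-20 and 1.6e-22).

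**Figure D1:**
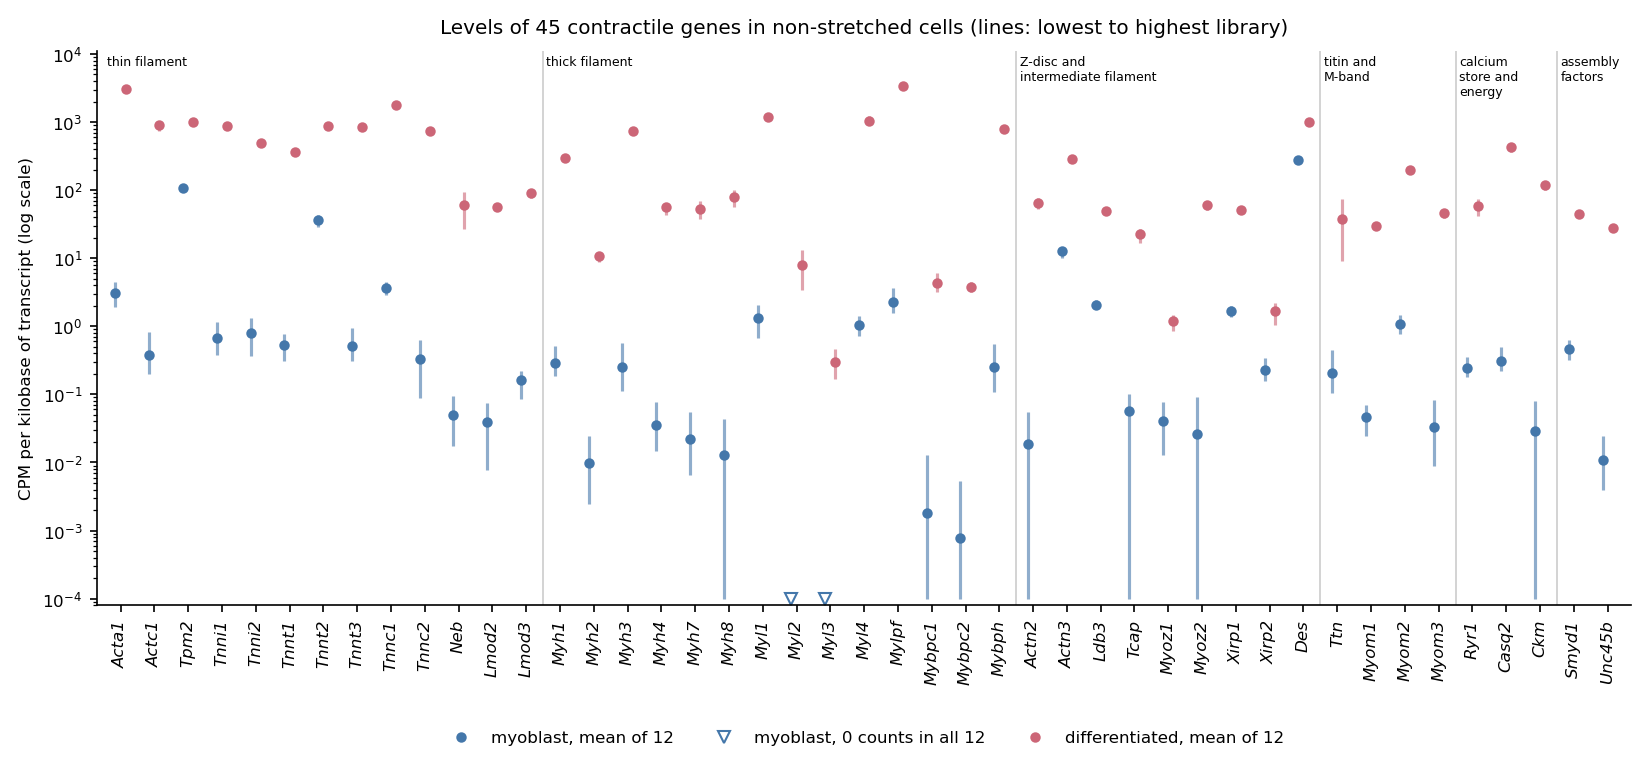
Level of each contractile gene in CPM per kilobase of its longest coding transcript (log axis), as the mean of 12 non-stretched libraries per stage, with a line from the lowest to the highest library; a line that reaches the bottom axis includes a library at 0. Every differentiated point lies above the myoblast point of the same gene, Des is closest (277.8 against 1013.6), and Myl2 and Myl3 had 0 counts in all 12 myoblast libraries.

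In the thin filament, Acta1 rose from a mean of 4.46 CPM (range 2.77 to 6.52) to 4446 CPM (4109 to 4759). The cardiac actin gene Actc1 rose from 0.559 ± 0.290 to 1324 ± 112 CPM (SD, n = 12). Both actin genes were thus low in myoblasts, and their levels did not overlap between the stages. Tropomyosin 2 (Tpm2) differed much less, with 237.2 ± 11.1 CPM in myoblasts and 2157 ± 116 in differentiated cells, a 9.09-fold ratio. Of the troponins, which switch the filament on when calcium binds, Tnnt2 was already at 43.0 ± 6.45 CPM in myoblasts and reached 1033 ± 57.0. The fast gene Tnnt3 went from 0.559 to 917.5 CPM and Tnnc2 from 0.228 to 512.3. Among troponins T and C the fast genes had the larger ratios, 1641 against 690.3 for Tnnt1 and 2246 against 477.1 for Tnnc1, whereas in troponin I the slow gene Tnni1 had the larger one, 1306 against 617.3 for Tnni2. Nebulin (Neb), which runs along the thin filament, had 1.14 ± 0.601 CPM in myoblasts and 1374 ± 479 in differentiated cells. The leiomodin genes Lmod2 and Lmod3, whose proteins nucleate actin filaments, were at 0.0778 and 0.360 CPM in myoblasts and at 110.7 and 199.4 in differentiated cells.

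In the thick filament, the embryonic heavy chain gene Myh3 rose from 1.53 CPM (0.671 to 3.44) to 4511 CPM (3942 to 4978). The neonatal gene Myh8 rose from 0.0789 to 484.8 CPM, a 6142-fold ratio and the highest of the 41. It had only 0 to 16 counts in a non-stretched myoblast library, so this ratio is imprecise. The ventricular light chain gene Myl2 had 0 counts in every non-stretched myoblast library and 7.16 ± 3.28 CPM in differentiated cells, which is at least 142.4-fold higher when each library at 0 is set to 3 counts. Myl3 was also at 0 in non-stretched myoblasts and stayed low, at 0.279 ± 0.0904 CPM, at least 5.56-fold higher by the same floor. The myosin binding proteins Mybpc1 and Mybpc2, which stabilize thick filaments, had at most 3 counts and 1 count in a myoblast library and reached 17.2 ± 4.19 and 13.8 ± 1.56 CPM. Mybph, of the same family, was far more abundant, with 1836 ± 137 CPM in differentiated cells.

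Genes of the Z-disc formed the group with the lowest median difference, 4.85 on the log2 scale, against 9.95 for the thin filament and 10.73 for the thick filament. Desmin (Des), the muscle intermediate filament, was the most abundant of the 45 genes in myoblasts, with 841.3 ± 38.7 CPM, and rose to 3069 ± 108, a ratio of 3.65. Fast alpha-actinin (Actn3) was at 37.2 ± 4.03 CPM in myoblasts and 818.4 ± 57.0 in differentiated cells. Ldb3 and Xirp1, both actin or actinin binding proteins of the Z-disc or the cell attachment sites, were at 10.7 ± 0.898 and 9.82 ± 1.25 CPM in myoblasts. Their ratios were 24.0 and 30.6. Actn2, the alpha-actinin also found in heart, stood in contrast to Actn3, with 0.0571 CPM in myoblasts and 196.1 in differentiated cells. Telethonin (Tcap), which joins titin ends in the Z-disc, went from 0.0533 to 21.2 ± 2.80 CPM, and Myoz1 reached no more than 1.56 ± 0.208. Thus 8 of the 41 genes had a ratio under 50. They were Tpm2 and Tnnt2 of the thin filament, and Des, Actn3, Ldb3, Myoz1, Xirp1 and Xirp2 of the Z-disc group.

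Titin (Ttn), the spring that spans the sarcomere, had 22.0 CPM in myoblasts (11.2 to 47.8) and 4028 in differentiated cells (988.3 to 7863). The myomesins, which crosslink thick filaments in the M-band, were led by Myom2 in both stages, at 5.58 ± 1.07 and 1016 ± 64.0 CPM. Ryr1, the calcium release channel, rose from 3.76 ± 0.877 to 900.9 ± 175 CPM. Casq2, a calcium-binding protein of the store, rose from 0.794 to 1091 ± 103 CPM, and muscle creatine kinase (Ckm) from 0.0793 to 330.4 ± 22.7. The myosin assembly factors Smyd1 and Unc45b rose from 1.58 to 152.0 and from 0.0454 to 113.6 CPM.

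Per kilobase of transcript, the 3 highest genes in differentiated cells were Mylpf (3336 ± 202 CPM per kb), Acta1 (3075 ± 146) and Tnnc1 (1752 ± 114), whose ranges over 12 libraries overlapped for the first 2 and not for the third. The next genes, Myl1 (1196 ± 55.7), Myl4 (1043 ± 80.4), Des (1014 ± 35.6) and Tpm2 (991.6 ± 53.5), each overlapped with their neighbor in the order. In myoblasts the order was Des (277.8 ± 12.8 CPM per kb), Tpm2 (109.1 ± 5.09), Tnnt2 (35.9 ± 5.37) and Actn3 (12.9 ± 1.39), with no overlap between any of these 4.

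Within families the isoform shares, also per kilobase, showed which forms the differentiated cells used. Myh3 held 60.2% ± 1.06 of the 6 heavy chain genes and Myh1, a fast form, 24.0% ± 1.63. Myh8 held 6.32% ± 0.918, Myh4 4.51% ± 0.493, Myh7, the slow form, 4.17% ± 0.669, and Myh2 0.856% ± 0.0358. Shared sequence limits these shares, because 37.9% of the 31-base stretches of Myh1 also occur in other genes, 32.8% of Myh2, 30.4% of Myh4, 22.9% of Myh7, 18.6% of Myh8 and 11.1% of Myh3. In myoblasts, where the 6 genes had mean levels of 0.0591 (Myh2) to 1.78 CPM (Myh1), Myh1 held 48.4% ± 6.26 and Myh3 39.2% ± 5.95. Among the troponins T, Tnnt2 held 97.2% ± 0.768 in myoblasts but 41.6% ± 0.876 in differentiated cells, beside 41.0% ± 0.782 for Tnnt3 and 17.4% ± 0.239 for Tnnt1. Slow forms led in the troponins I and C of differentiated cells, with 64.2% ± 0.664 for Tnni1 and 70.5% ± 1.00 for Tnnc1. The fast form led in the alpha-actinins, with 81.4% ± 0.788 for Actn3 against 18.6% for Actn2. The light chain genes were pooled without splitting them by kind, and the fast gene Mylpf held 59.8% ± 0.716 of this pool. Fast Myl1 held 21.4% ± 0.390 and the atrial and embryonic gene Myl4 18.7% ± 0.693. Levels of Myl1 and Myl4 per kilobase overlapped between libraries, but their shares of the pool did not. These shares were 20.93% to 22.08% for Myl1 and 17.91% to 20.51% for Myl4 over the 12 non-stretched libraries. Myl2 held 0.142%. The fast genes Mylpf and Myl1 thus held the largest shares of this pool in non-stretched cells. In stretched libraries the ranges of the Myl1 and Myl4 shares overlapped. Acta1 held 77.4% ± 1.22 of the sarcomeric actins.

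The next comparisons asked which contractile genes responded to stretching in myoblasts. At 1 h none of the 30 genes with enough counts was called in either direction by edgeR, where 1.25% of the 14938 genes tested were called; 7 of the 30 had an unadjusted p under 0.05, and 15 genes were too low to test. DESeq2 called 1, Tnnt1. Slow troponin T (Tnnt1) was at 0.482, 0.458, 0.808 and 0.711 CPM in the non-stretched replicates 7 to 10 and at 0.328, 0.157, 0.283 and 0.437 in the stretched ones. All stretched libraries were below the non-stretched ones, as in 3 of the 30 genes and 8.03% of all genes, with a log2 difference of -1.02 ± 0.29 (SE, adjusted p = 0.0714, edgeR). It was called with the experiment as a covariate, at -1.04 (edgeR, adjusted p = 0.0244), and in a fit with a replicate block, at -1.05 (edgeR, adjusted p = 0.0434). Actn3 alone passed the adjusted p at any fold, which 5.92% of all genes did. It was at 35.5, 36.7, 35.1 and 39.4 CPM without and 34.1, 30.4, 27.7 and 28.6 CPM with stretching, so the groups did not overlap, and the log2 difference was -0.28 ± 0.06 (edgeR, adjusted p = 0.0206). Values were lower in stretched cells for 25 of the 30 genes, with a median of -0.28 against 0.00 over all genes tested. The thick filament genes had a median of -0.56 over 6 tested, led by Myh3 at -0.88 ± 0.37 (edgeR, adjusted p = 0.221).

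At 3 h, 2 of 30 contractile genes were called, both lower (1.25% of the 14813 genes tested were called lower). Myl1, an alkali light chain of fast muscle, had 1.34, 1.34, 1.83 and 2.23 CPM without and 1.01, 0.973, 0.801 and 1.29 CPM with stretching. The groups did not overlap, and the log2 difference was -0.74 ± 0.19 (edgeR, adjusted p = 0.0105). Mybph was at 0.628, 0.446, 1.07 and 0.978 CPM without and at 0.485, 0.456, 0.294 and 0.541 CPM with stretching, so that the groups overlapped, at -0.82 ± 0.28 (edgeR, adjusted p = 0.0411). Its call was lost with all 24 libraries in the fit (-0.83, adjusted p = 0.108), with an index of transcript length as a covariate (-0.75, adjusted p = 0.0752, edgeR) and without any 1 of 5 libraries (-0.63 to -0.87), and that of Myl1 without non-stretched replicate 10 (-0.57). At any fold, 9 of 30 passed the adjusted p, beside 31.9% of all genes, and 7 of 30 did not overlap between groups, beside 30.8%. Both shares were close to those of all genes. Tnnc2, Myh4 and Myom1 had larger absolute differences than the other genes that passed, but did not pass themselves. Besides Myl1 and Mybph, the genes that passed and fell were Tnni2, Ldb3, Ryr1 and Actn3, by 0.50, 0.48, 0.44 and 0.29 on the log2 scale. Ldb3 had the smallest adjusted p of these (1.3e-04, edgeR), from 11.1, 10.2, 11.8 and 12.5 CPM to 8.12, 8.38, 8.12 and 8.34. Its stretched libraries lay close together and below all non-stretched ones. The atrial and embryonic light chain gene Myl4 rose by 0.57 ± 0.17, Xirp1 by 0.39 ± 0.08 and Tnnt2 by 0.10 ± 0.03 (edgeR, adjusted p = 0.0214, 0.00248 and 0.0365). The gene for myogenin, Myog, was also lower at 3 h, at 2.35 ± 0.906 CPM without and 1.34 ± 0.0757 with stretching (n = 4, log2 difference -0.82, adjusted p = 0.0167, edgeR), and its part in these differences was not tested.

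At 6 h, 1 of 29 genes was called higher and 1 lower, where 1.35% and 0.823% of the 14938 genes tested were. Both encode Xin proteins, actin-binding repeat proteins of the attachment sites of myofibrils. Xirp1 (chr9:120013755-120023598, minus strand) was at 8.15, 8.02, 9.20 and 9.26 CPM without and at 13.6, 10.8, 18.0 and 14.7 CPM with stretching. Every stretched library was higher, at a log2 difference of 0.74 ± 0.13 (edgeR, adjusted p = 0.00197). Xirp2 (chr2:67446002-67526614, plus strand) was at 2.16, 1.87, 2.59 and 1.91 CPM without and 1.22, 1.25, 1.13 and 1.82 CPM with stretching. Every stretched library was lower, with replicate 10 close to the non-stretched range, at -0.64 ± 0.16 (edgeR, adjusted p = 0.0140). Without replicate 9 of either group Xirp2 was at -0.53 or -0.57 and no longer passed the fold limit. At any fold 6 of 29 passed, beside 27.2% of all genes, and 7 of 29 did not overlap between groups, beside 28.7%. The other 4 were Ldb3 and Tnnc1, which rose by 0.34 and 0.33, and Actn3 and Des, which fell by 0.32 and 0.11. Des was at 815.7 ± 21.3 and 745.0 ± 33.7 CPM (n = 4).

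The effects of stretching at 6 h and at 1 h were compared directly. Xirp1 had log2 differences of 0.14, 0.39 and 0.74 in time order, and the interaction of stretching and time placed the effect at 6 h above that at 1 h by 0.61 ± 0.17 (edgeR, adjusted p = 0.0198), 1 call among 31 genes where 2.89% of the 15455 genes tested were called in either direction. The estimate fell to 0.52, 0.58 and 0.47 without stretched replicate 7 at 1 h, non-stretched replicate 8 at 6 h or stretched replicate 9 at 6 h, each under the fold limit. Ldb3 was at 0.04, -0.48 and 0.34, so it was lower at 3 h and higher at 6 h, and the effect at 6 h exceeded that at 1 h by 0.30 ± 0.08 (edgeR, adjusted p = 0.0182). Xirp1 and Ldb3 were the 2 of 31 genes that passed this test at any fold, which 18.1% of all genes did. Xirp2 was at -0.33, 0.31 and -0.64. Actn3 was the only one of the 28 genes tested at all 3 times that passed the adjusted p at each of them, and its groups did not overlap at any time. Of those 28 genes, 11 had lower values with stretching at all 3 times, among them Acta1, Actc1, Des, Myh3, Myl1 and Ryr1, and 2 had higher values at all 3, Xirp1 and Tnnc1. The shares of all genes that passed, did not overlap or kept their direction at all 3 times were not computed, so these counts have no reference.

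**Figure D2:**
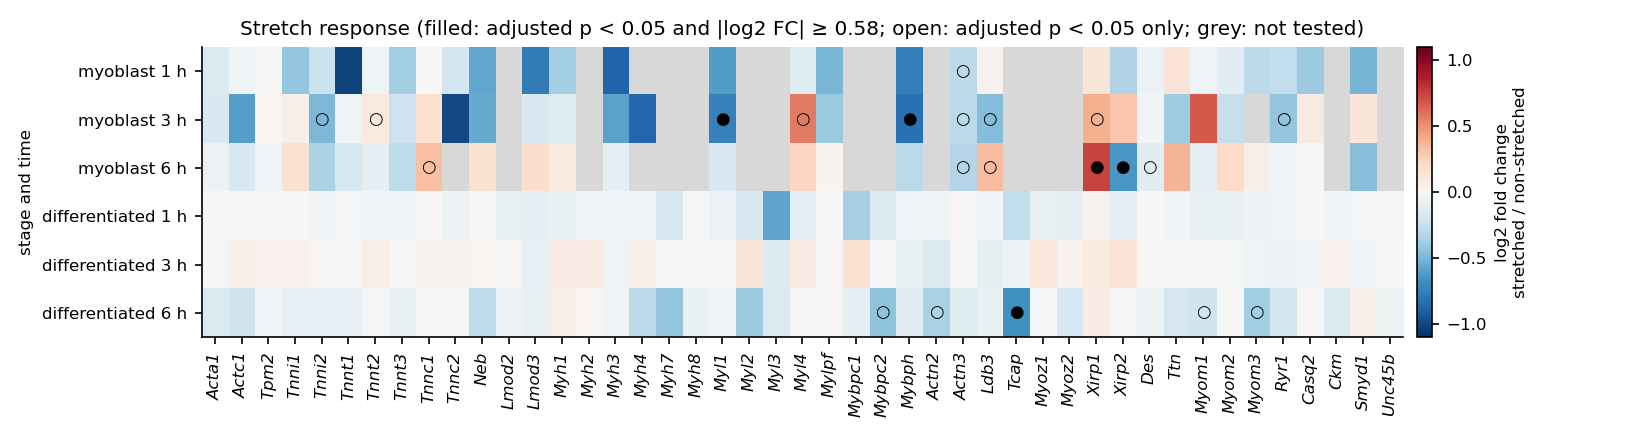
Log2 fold change (color) of stretched against non-stretched cells for each contractile gene (columns, by role) in the 6 comparisons (rows), 4 libraries against 4. The 5 filled circles mark calls (Myl1 and Mybph at 3 h and Xirp1 and Xirp2 at 6 h in myoblasts, Tcap at 6 h in differentiated cells), open circles mark an adjusted p under 0.05 with a smaller fold, and grey fields were too low to test.

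The lower values in stretched myoblasts were seen mainly in one of the experiments. Within B31, 3 of 30 genes were higher with stretching at 1 h and the median log2 difference was -0.40, whereas within B27 18 of 30 were higher and the median was 0.03. At 3 h the medians were -0.47 in B31 and 0.07 in B27, and at 6 h they were -0.01 and -0.05. Myl1 at 3 h was at -0.92 in B31 and -0.39 in B27, and Mybph at -1.16 and -0.14. Neb at 1 h was at -1.18 in B31 and 0.54 in B27. The B27 value rested on stretched replicate 8, at 1.01 CPM. Stretched replicate 7 was at 0.430 CPM, beside 0.467 and 0.395 without stretching. Stretched replicate 8 also had the highest index of transcript length (0.12, defined below) of the myoblast libraries at 1 h, and its part was not tested. The difference of the stretch effects between B31 and B27 was tested with an interaction term, a test added after the values were seen. None of 30 genes was called at 1 h, with 6 at an unadjusted p under 0.05, and none of 30 at 3 h, with 12. Of all genes 0% and 0.0473% were called, and 4.12% and 8.51% had an unadjusted p under 0.05. The median interaction was -0.51 and -0.49, and the smallest adjusted p was 0.170 for Myh3 at 3 h (edgeR). The calls at 6 h did not split in this way, since Xirp1 was at 0.58 in B27 and 0.81 in B31, Xirp2 at -0.66 and -0.60, and Actn3 lower within both experiments at every time.

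**Figure D3:**
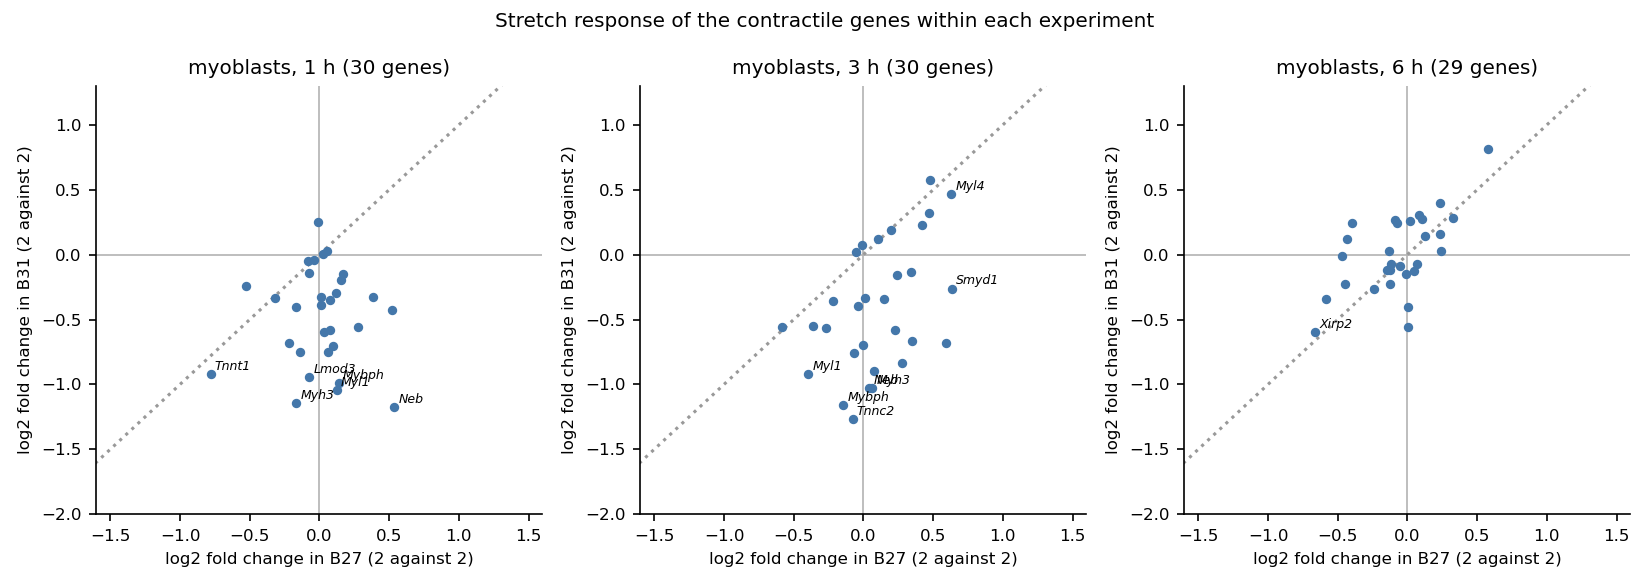
Log2 fold change with stretching within experiment B27 (horizontal axis) and within B31 (vertical axis), 2 libraries against 2, for the contractile genes tested in myoblasts at 1 h, 3 h and 6 h; the dotted line marks equal change. At 1 h and 3 h the points lie mostly under the line, with medians of -0.40 and -0.47 in B31, and at 6 h they scatter about 0 apart from Xirp1 and Xirp2.

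In differentiated cells the contractile genes moved little with stretching. At 1 h and at 3 h 0 of 45 genes were called by edgeR, where 0.27% of 15538 and 1.63% of 15513 genes tested were called; 1 gene had an unadjusted p under 0.05 at each time, and 0 passed the adjusted p at any fold, beside 0.663% and 22.2% of all genes. No gene had groups that did not overlap, beside 6.37% and 25.9% of all genes. DESeq2 also called 0 at both times. Without the B17 library the count at 1 h was again 0. The log2 differences ran from -0.58 (Myl3, adjusted p = 0.798, edgeR) to 0.04 at 1 h and from -0.16 to 0.17 at 3 h. Of the 45 genes, 22 stayed within 0.1 of no change at all 3 times and 32 within 0.2. Myh3, for example, was at 4557, 4707, 4042 and 3942 CPM in the non-stretched replicates 7 to 10 at 1 h and at 4347, 4553, 4099 and 3882 CPM in the stretched replicates 4, 7, 8 and 9, so that the groups overlapped widely. Values were lower with stretching for 40 of 45 genes at 1 h, at a median of -0.04, and for 19 at 3 h, at a median of 0.01.

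At 6 h 1 of 45 was called, lower, where 1.52% of the 15433 genes tested were called lower. Tcap (chr11:98383811-98384953, plus strand) was at 22.5, 22.2, 25.1 and 22.2 CPM without and 13.8, 15.9, 13.8 and 14.4 CPM with stretching. The groups were wide apart, and the log2 difference was -0.67 ± 0.06 (edgeR, adjusted p = 1.9e-04). It was -0.59 within B25 and -0.74 within B28. At 3 h Tcap had been at 21.5 ± 2.75 and 20.6 ± 4.42 CPM, and at 1 h at 19.2 ± 3.02 and 15.9 ± 3.78 (n = 4), with the B17 library lowest at 11.1. The difference between the effects at 6 h and 1 h was -0.41 ± 0.19 and did not pass (edgeR, adjusted p = 0.219), and 0 of 45 genes were called in that comparison, where 2.17% of the 15981 genes tested were called, with 2 at an unadjusted p under 0.05.

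At any fold 5 of 45 genes passed at 6 h, all lower, beside 10.8% of all genes, and 4 of them did not overlap between groups, beside 12.2%. These shares were close to those of all genes. Next to Tcap they were Mybpc2, Myom3, Actn2 and Myom1, which fell by 0.44, 0.38, 0.34 and 0.22 (edgeR, adjusted p = 0.0226, 0.00367, 0.00651 and 0.0307). Myom3, a myomesin of the M-band, went from 249.9, 252.3, 282.3 and 219.3 CPM to 193.4, 206.8, 188.7 and 181.6. All its stretched libraries were lower. Actn2, in the Z-disc, went from 190.4, 198.5, 202.4 and 160.5 CPM to 159.5, 150.8, 145.8 and 137.0, with a narrow gap between the groups. In all 40 of 45 genes had lower values at 6 h and the median was -0.08, with medians of -0.09 for the thick filament, -0.08 for the thin filament and the Z-disc group, and -0.20 for titin and the M-band. Within B25 20 of 45 genes were higher with stretching and the median was -0.02, and within B28 7 were, at -0.15. The tubulin gene Tubb3 was higher at this time, at 47.3 ± 5.08 CPM without and 83.3 ± 2.40 with stretching (n = 4, log2 difference 0.82, adjusted p = 1.5e-04, edgeR), and its part in these differences was not tested.

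**Figure D4:**
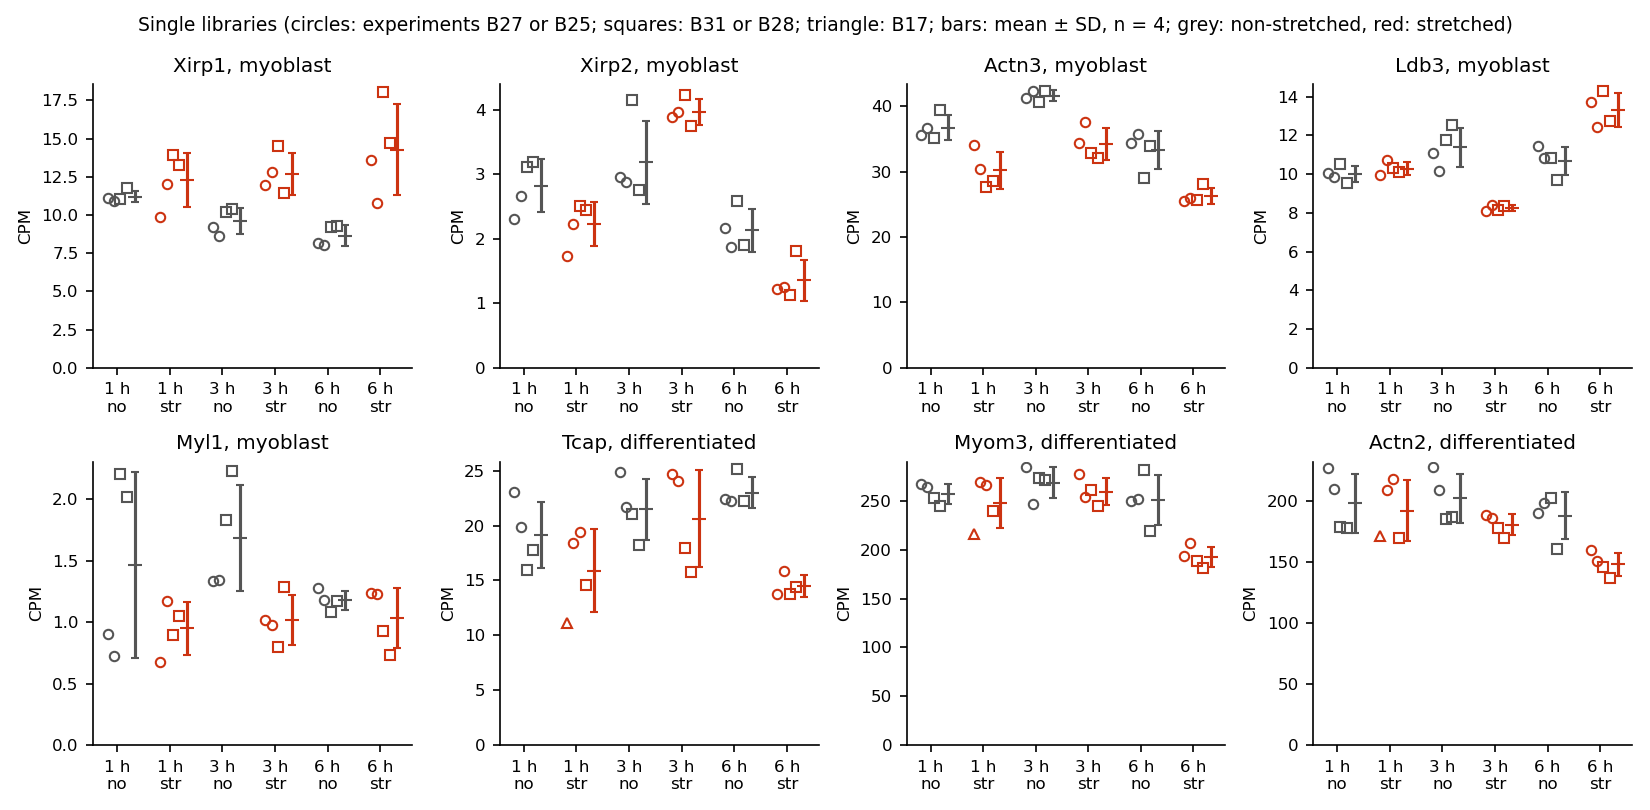
CPM of 8 contractile genes in single libraries, non-stretched (no, grey) and stretched (str, red) at each time, with mean ± SD of 4 libraries; circles are experiments B27 or B25, squares B31 or B28 and the triangle B17. Xirp1 and Xirp2 in myoblasts part at 6 h in opposite directions, Actn3 is lower with stretching at all times, Ldb3 is lower at 3 h and higher at 6 h, and Tcap, Myom3 and Actn2 in differentiated cells part at 6 h.

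Other genes of muscle contraction showed how far the 45 stood for their pathway. Of 43 further sarcomere genes in the tables, 32 were tested in myoblasts and 41 in differentiated cells. Only Lmod1, a leiomodin of smooth muscle, was called in the 6 comparisons, lower at 6 h in myoblasts (-0.68 ± 0.15, edgeR, adjusted p = 0.00695). More were called when the stretch effect at 6 h was set against that at 1 h, beside 2.89% of all genes in myoblasts and 2.17% in differentiated cells. Ankrd1 was at -0.78 in myoblasts and -0.71 in differentiated cells (edgeR, adjusted p = 2.3e-06 and 0.00857). Lmod1 was at -0.73 in myoblasts. In differentiated cells Tmod4 was at 1.14 and Pvalb, an energy and coupling gene, at -0.85. None of the 26 genes of excitation-contraction coupling and muscle energy was called in any of the 6, by edgeR at the same limits, although 9 of 25 tested at 6 h in differentiated cells were lower at any fold, beside 10.8% of all genes, with a median of -0.16. Between the stages, 31 of 41 further sarcomere genes and 24 of 25 coupling and energy genes were called higher in differentiated cells, beside 27.1% of all genes. Genes too low to test in myoblasts entered this comparison, too, through their differentiated libraries. Of the non-muscle and smooth muscle contractile genes 6 of 21 were called higher, a share close to that of all genes. Another 9 were called lower, and as no share of all genes called lower is given here, this count is not read as a trait of the list.

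Culture time without stretching was compared at 6 h against 1 h. In myoblasts 1 of 30 contractile genes was called, lower, where 0.0534% of the 14970 genes tested were called lower. Acta1 was at 5.15, 5.26, 4.70 and 6.52 CPM at 1 h and at 3.33, 2.77, 3.13 and 3.11 at 6 h. The 6 h libraries were all lower, by 0.80 ± 0.10 on the log2 scale (edgeR, adjusted p = 0.00570). At any fold 3 of 30 passed, all lower, beside 0.407% of all genes, and 4 were below without overlap, beside 4.21%. Tnnt2 fell by 0.49 and Xirp1 by 0.37 (edgeR, adjusted p = 3.3e-04 and 0.0164). Xirp1 thus fell with time in non-stretched myoblasts, from 11.2 ± 0.382 to 8.66 ± 0.665 CPM, while stretched myoblasts were at 12.3 ± 1.79, 12.7 ± 1.35 and 14.3 ± 3.00 CPM at the 3 times (n = 4). In differentiated cells 0 of 45 genes were called by edgeR, where 0% of the 15570 genes tested were called; 4 of 45 had an unadjusted p under 0.05, and DESeq2 called 0.

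Contractile genes also differed between the experiments of a stage. Among non-stretched differentiated cells, B28 had 4 of 45 genes called lower than B25, where 0.527% of the 16309 genes tested were called lower, and 20 of 45 passed at any fold, 19 of them lower, beside 17.3% of all genes. In 6 of 45 every library of B28 was lower, beside 3.02%. Myl2 ranged from 9.39 to 11.9 CPM in the 6 libraries of B25 and from 3.06 to 5.01 in the 6 of B28. These did not overlap, at a log2 difference of -1.31 ± 0.10 (edgeR, adjusted p = 5.2e-06). Xirp2 was at 24.0 ± 2.14 and 15.7 ± 2.41 CPM (n = 6), Ttn at 5611 ± 1735 and 2444 ± 1497, and Neb at 1727 ± 348 and 1021 ± 292, of which the libraries of Ttn and Neb overlapped between the experiments. In stretched libraries Ttn and Neb were not called, at 0.51 and 0.077 on the log2 scale (edgeR, adjusted p = 0.638 and 0.914). Xirp2 was at -0.08 there (edgeR, adjusted p = 0.728), and Myl2 was again lower in B28, at -1.45. The smooth muscle genes Cnn1, Actg2 and Tagln were higher in B28, by 1.36, 0.72 and 0.63, and their part in these differences was not tested. In non-stretched myoblasts 1 of 34 genes was called between B31 and B27, where 0.0763% of the 15723 genes tested were called higher. It was also the gene without overlap, beside 0.534% of all genes, and it was Smyd1, a methyltransferase needed for myosin assembly, at 1.25 ± 0.180 and 1.91 ± 0.170 CPM (n = 6), whose difference in stretched libraries was 0.20 (edgeR, adjusted p = 0.694).

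The spread between non-stretched libraries was wide for the longest contractile transcripts and for the light chain genes Myl2 and Myl3. The coefficient of variation was taken over the 12 non-stretched differentiated libraries, which pool all times and both experiments. Its median was 7.71% over the 45 genes, and it was under 10% in 31. It was 56.2% for Ttn and 34.9% for Neb, whose longest coding transcripts have 106824 and 22489 bases. The short genes Myl2 and Myl3, of 889 and 937 bases, also varied widely, by 45.9% and 32.4%. For Myl2, Ttn and Neb this spread includes the difference between B25 and B28 given above. At 6 h Ttn was at 7863, 6301, 1576 and 5309.6 CPM without and at 2893, 2622, 10069.5 and 2968 CPM with stretching. The highest and the lowest library of a group thus differed far more than the group means, 5262 and 4638 CPM. For each library an index of transcript length was formed from the log2 deviation of each gene from its mean over the stage. It was the median over 258 long genes (at least 10000 bases) minus that over 3851 short genes (1000 to 3000 bases), neither holding any contractile gene. Over the 24 differentiated libraries the log2 level of Ttn followed this index with Pearson's r = 0.969 and Spearman's rho = 0.949, Neb with 0.951 and 0.926, and Ryr1 with 0.868 and 0.838. Each permutation p was 1e-05, the smallest that the permutations can give, and 1.5e-05 and 1.2e-05 after adjustment over 6 relations. Without the 2 libraries farthest from the median index r was 0.955, 0.945 and 0.854. Within B25 (12 libraries) r was 0.971, 0.969 and 0.961, and within B28 (11 libraries) 0.972, 0.968 and 0.937. In the 24 myoblast libraries r was 0.940 for Ttn, 0.744 for Neb and 0.708 for Ryr1, with rho of 0.918, 0.779 and 0.744 (permutation p between 1e-05 and 1.6e-04, adjusted between 1.2e-05 and 1.6e-04). With the index as a covariate, an alternative added after the values were seen, Ttn, Neb and Xirp2 were no longer called between B28 and B25, at -0.25, -0.17 and -0.32 (edgeR, adjusted p = 0.154, 0.0654 and 0.00945), the last because it missed the fold limit.

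**Figure D5:**
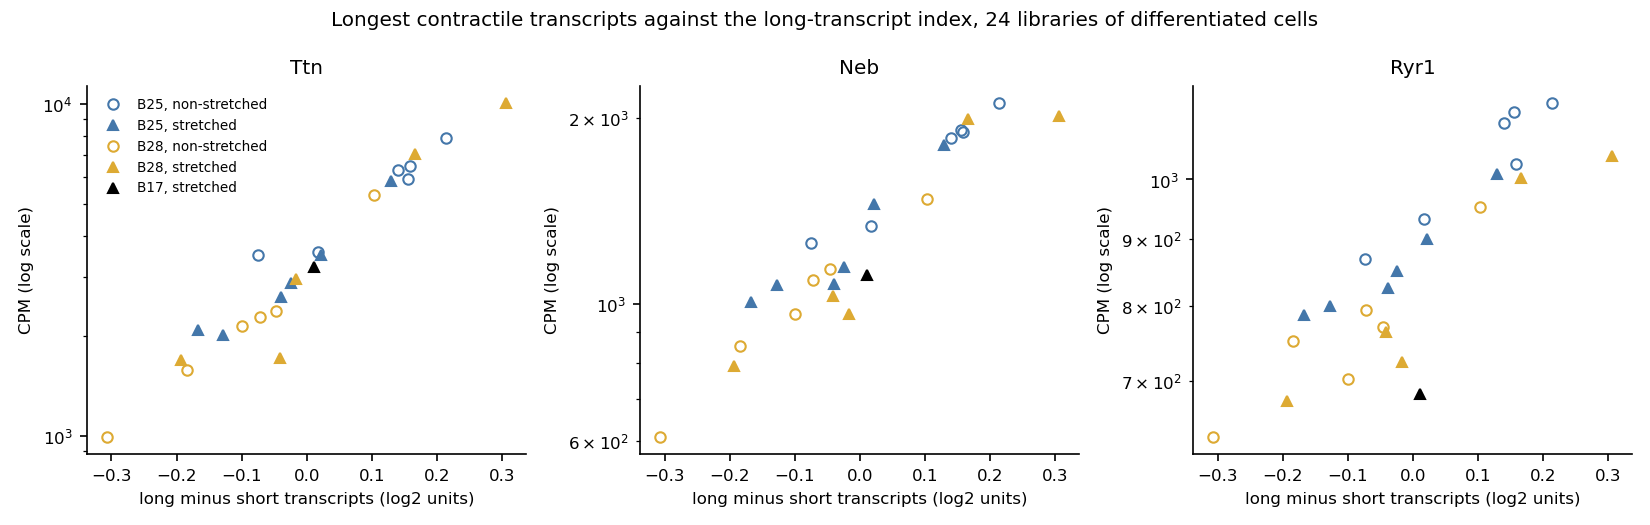
CPM (log axis) of Ttn, Neb and Ryr1, the contractile genes with the longest transcripts, against the index of long minus short transcripts (log2 units) in 24 libraries of differentiated cells; open circles are non-stretched and filled triangles stretched libraries, in the color of their experiment. Ttn rises from 988.3 to 10069.5 CPM along an index from -0.31 to 0.31, in stretched and non-stretched libraries alike.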

How the data were processed

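RNA-seq counts were used from 48 libraries of C2C12 cells. Reads had been mapped to mm10 by the authors (STAR, Salmon), who deposited 1 table per stage of whole-number, unnormalized counts for 47480 gene symbols. All columns were used. After filterByExpr and TMM scaling, edgeR 4.0.16 (R 4.3.3) gave quasi-likelihood tests. Genes were called at a Benjamini-Hochberg adjusted p under 0.05 over all genes tested and an absolute log2 difference of 0.58 or more. Experiment comparisons and the stage comparison had time as a covariate, and the stage comparison joined both tables by symbol. CPM used TMM factors over all 48 libraries. Levels per kilobase used the longest coding transcript of GENCODE vM21 (mm10), and genes that share sequence depend on how Salmon divides reads. A stretched myoblast library at 1 h, replicate 9, carries a code no other library has in its title and was taken as B31 from its column name. The labels name nuclear RNA as the molecule, and the study describes mRNA libraries.

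Replicate numbers were not taken to pair libraries, since the correlations of same-numbered deviations lay between -0.05 and 0.21. Replicates differed by more than sampling noise in all 72 pairs. DESeq2 1.42.0, RLE factors, other filters, all libraries of a stage, the experiment or replicate number as a factor, a threshold test and leaving out each library were alternatives. The test was checked on simulated counts. The 45 genes and all lists were chosen with earlier results of these data known. Genes are named where called, and some of the largest differences, up to 5 per comparison, are also given. All 45 may be named with their levels. Genes singled out beyond this rule were chosen after their values were seen.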

Additional observations from a re-analysis of the deposited data

Results flagged for a closer look

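In 24 groups of 4 libraries, tested for a library far from the other 3, 2 values stood apart, and chance gives about 1 in 20 such groups. Xirp2 in stretched myoblasts at 6 h had its highest library at 1.82 CPM, against 1.13 to 1.25 in the others. Tcap in non-stretched differentiated cells at 6 h had its highest library at 25.1 CPM, against 22.2 to 22.5 in the others. The effect of stretching on Xirp1 in myoblasts differed between 6 h and 1 h, by 0.61 on the log2 scale (interaction term of edgeR, adjusted p = 0.0198), with all 4 stretched libraries above the non-stretched ones at 6 h and 3 of 4 above them at 1 h.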

How the results depend on the processing

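Depth limits the low genes: 15, 15 and 16 of the 45 could not be tested in myoblasts, where Mybph had 17 to 76 counts in a non-stretched library. Of the values for single named genes under other settings, 1415 kept direction and side of the threshold, 16 gained and 24 lost a call, and 15 changed sign; the causes were not tested unless the setting itself shows them.

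The count of called genes in myoblasts at 1 h went from 0 to 1 (Tnnt1, lower) with DESeq2, with no filter, with all 24 libraries, with the experiment as a covariate and in the fit with a replicate block, and to 1 (Actn3) with no fold limit. The block moved no other count by over 1.5 times. In myoblasts the count at 3 h went from 2 to 4 with no filter, 9 with no fold limit, 0 in the threshold test and 1 with all 24 libraries (without Mybph), and at 6 h from 2 to 6 with no fold limit and 0 in the threshold test. In differentiated cells at 6 h it went from 1 to 5 and 0. Without a fold limit it went from 1 to 3 for time in myoblasts and from 1 to 2 for the interaction. Between B31 and B27 it went from 1 to 2 with DESeq2, 8 with no filter, 4 with no fold limit and 0 in stretched libraries or with the length index, and between B28 and B25 from 4 to 20, with no fold limit, and 2 in stretched libraries or with the length index.

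Leaving out 1 library gave 0 to 1 calls in myoblasts at 1 h, 1 to 7 at 3 h (7 without non-stretched replicate 8; 1 without non-stretched replicates 9 or 10 or stretched replicate 9) and 1 to 2 at 6 h, 0 in differentiated cells at 1 h and 3 h and 1 at 6 h, 1 to 2 for time in myoblasts and 0 in differentiated cells, and 0 to 2 for the interaction in myoblasts and 0 in differentiated cells. Mybph at 3 h was lost without any 1 of 5 libraries, at -0.63 to -0.87 (edgeR, adjusted p from 0.0668 to 0.128), and Myl1 without non-stretched replicate 10, at -0.57. At the same time Tnnc2 gained a call without non-stretched replicate 8, at -1.22, and Myh4 without stretched replicate 10, at -1.21 (edgeR, adjusted p = 0.0183 and 0.0334).

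Signs changed without 1 library for Ttn in myoblasts at 6 h (-0.12, in a range up to 0.59), for Myl2 in differentiated cells at 1 h (0.11, 0.16 and 0.04, in a range from -0.50) and 3 h (-0.19, -0.03, -0.06 and -0.01, in a range up to 0.37), for Myh7 at 1 h (0.0082, in a range from -0.35), for Myl3 at 3 h (0.044, in a range from -0.28) and for Mybph over time (0.16, in a range from -0.80). In stretched libraries they changed for Mybph (-0.10) and Myh3 (-0.11) between B31 and B27 and for Ttn (0.51) and Neb (0.077) between B28 and B25.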
